A study of Mus musculus with 4 samples.

Results

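The cells described here are capillary endothelial cells of the mouse submandibular salivary gland that carry transcripts of Car4 and Esm1. They were chosen by measured values: at least 4 summed UMIs (unique molecular identifiers, each standing for 1 captured transcript) of the endothelial genes Pecam1, Cdh5, Egfl7 and Cldn5, no UMI of Ptprc, Pdgfra, Prox1, Selp, Ackr1 or Aplnr, at most 1 UMI of the arterial genes Sema3g, Gja4 and Gja5, and at least 2 UMIs of Car4 and Esm1 together. The rule selected 5841 of 39843 cells kept, among 19527 gated endothelial cells, that is cells that passed the endothelial genes and lacked Ptprc, Pdgfra and Prox1. Of the 5841, 490 came from the ligated library and 969, 1846 and 2536 from mock 1, mock 2 and mock 3. Levels of the genes in the rule are therefore descriptions and carry no test.

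Glands came from female C57BL6/J mice 14 days after surgery, in which a metal clip closed the main submandibular and sublingual ducts (ligated) or the ducts were exposed and left unclipped (mock). Cells bearing EpCAM or Ter119, surface proteins of epithelium and of red blood cells, and dead cells were depleted before 10x Genomics droplet capture. There was 1 ligated library and 3 mock libraries, and the labels do not give the age of the mice or how many mice each library holds. With a single ligated library, every surgery comparison rests on the spread between the mock libraries, which may be technical.

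Capillary endothelium lines the smallest vessels and passes water, solutes, lipids and hormones between blood and tissue. Car4 (carbonic anhydrase 4, an enzyme anchored to the cell surface that interconverts carbon dioxide and bicarbonate) marks a subset of capillary cells in the mouse lung and other organs. Esm1 (endocan, a secreted proteoglycan) is known from endothelial tip cells, the cells at the front of a growing vessel, and Aplnr, the apelin receptor, marks another capillary subset.

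The libraries differed in ways that touch these cells. The selected cells held 2394923 UMIs in the ligated library and 5824424, 8071918 and 9329960 UMIs in mock 1 to 3, with medians of 4145.5 UMIs per cell in ligated and 5381, 3858 and 3256.5 in mock 1 to 3. By their headers, the mock 2 and mock 3 files came from Cell Ranger 7.0.0, and those of mock 1 and the ligated library from 6.0.1. In the selected cells, 614 genes lay past 2-fold in mock 1 from both other mock libraries, while 9 genes lay past 2-fold between mock 2 and mock 3. Of the genes tested, 19 stood higher and 299 lower in both version 6.0.1 libraries than in both 7.0.0 libraries by that fold. Sox18, a transcription factor of endothelium, is one of the 299. In CPM, counts per 1000000 after TMM scaling of the libraries, it stood at 147 CPM in ligated and 160, 1001 and 959 CPM in mock 1 to 3. Between 0 and 5 cell barcodes of selected cells were shared by any pair of libraries.

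The selected cells carried Rbp7 and Rgcc, capillary genes that the rule did not use. The other gated endothelial cells set beside them pool Aplnr capillary, arterial, venous and unassigned cells. Rbp7, a retinol-binding protein, stood at 1797 raw CPM (UMIs per 1000000 UMIs of the same cells, unscaled) in selected cells of the ligated library, against 949 in the other gated endothelial cells. In mock 1 to 3 it stood at 3254, 1949 and 2215 raw CPM in selected cells, against 1940, 1092 and 1118. Rgcc, a cell cycle regulator enriched in capillaries, stood at 1225 raw CPM in ligated and 3689, 2767 and 2758 in mock 1 to 3, against 830 in ligated and 2255, 1622 and 1597 in mock 1 to 3 in the other gated cells. Both genes were higher in the selected cells of every library, and outside the endothelial gate Rbp7 did not pass 259 raw CPM in any library. Rbp7 and Rgcc thus matched the capillary label. The comparison is partly set by the rule, which kept arterial and venous cells out of the selected cells only. The 22 listed capillary fatty acid genes summed to 9815 raw CPM in selected ligated cells, against 8750 in the other gated cells. In mock 1 to 3 they summed lower in the selected cells, at 19076, 15128 and 15426, against 20133, 16321 and 16210.

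Beyond the rule, Penk, Slc16a1 and Igfbp3 were among 15 genes with a higher level in the selected cells of all 4 libraries than in the other gated endothelial cells. As log2 ratios to the other gated endothelial cells (5 CPM added), Penk, the precursor of the enkephalin peptides, was 1.19 higher in ligated and 1.48, 1.01 and 1.55 higher in mock 1 to 3. Slc16a1, a transporter of lactate and other monocarboxylates, was 0.87 higher in ligated and 0.79, 0.81 and 1.02 higher in mock 1 to 3. Igfbp3, which binds insulin-like growth factors, was 0.60 higher in ligated and 0.60, 0.86 and 0.84 higher in mock 1 to 3. Others of the 15 genes with the steadiest excess were Sema3c, a secreted guidance cue, Gja1, the gap junction protein connexin 43, Sort1, a sorting receptor, and Col13a1, a transmembrane collagen. The genes lower in the selected cells included Fbln5 and Stmn2, listed with arterial endothelium, and Vwf, listed with venous endothelium, at log2 ratios of -4.13 to -2.56 over the 4 libraries. These are descriptions with no test, since arterial and venous cells had been removed by the rule.

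Among themselves the selected cells were not uniform. Cells with Car4 and no Esm1 made up 64.7% in ligated and 50.5, 49.9 and 48.9% in mock 1 to 3, and cells with both made up 25.1% in ligated and 44.8, 45.7 and 44.6% in mock 1 to 3. Cells with Esm1 and no Car4 were fewest, at 10.2% in ligated and 4.75, 4.39 and 6.51% in mock 1 to 3. The level of Penk was higher in Esm1-only cells, at 125 raw CPM in ligated and 798, 730 and 523 in mock 1 to 3, against 6.72 in ligated and 5.87, 6.25 and 3.21 in mock 1 to 3 in Car4-only cells. Cxcl12, a chemokine, was also higher on the Esm1 side, at 2646 raw CPM in ligated and 10663, 3566 and 3363 in mock 1 to 3, against 1084 in ligated and 3608, 1264 and 1228 in mock 1 to 3 on the Car4 side. Lrg1, a secreted glycoprotein, Mecom, a transcription factor, and Nr5a2, a nuclear receptor, leaned the same way in all 4 libraries. On the Car4 side, Prss23, a secreted serine protease, stood at 509 raw CPM in ligated and 597, 607 and 583 in mock 1 to 3, against 163 in ligated and 176, 235 and 229 in mock 1 to 3 in Esm1-only cells. Car8, Ada (adenosine deaminase), Id4, Mfap2, Irx3, Fbln2 and Fam174b leaned to the Car4 side in all 4 libraries. The ligated Esm1-only group held 50 cells.

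The first surgery question was how much of the endothelium these cells made up after duct ligation. They were 12.8% of gated endothelial cells in the ligated library (490 of 3832, exact binomial 95% interval 11.8 to 13.9%), against 36.8, 33.5 and 33.6% in mock 1 to 3, a mean of 34.6% ± 1.87 (SD, n = 3). The ligated share lay 21.8 percentage points below the mock mean, outside the range of the mock libraries. Of all cells kept, they were 3.68% in ligated and 21.1, 20.0 and 20.0% in mock 1 to 3. The Aplnr capillary class stood at 34.2% of gated endothelium in ligated, against 24.2, 30.9 and 27.6% in mock 1 to 3, and the arterial class at 19.5%, against 15.3, 12.4 and 12.2%. With each cell thinned to 2000 UMIs and the rule then applied to the thinned counts (649 ligated and 123, 486 and 1059 mock cells left out as shallower, or 16.9% and 4.67, 8.81 and 14.0%), the share was 9.97% in ligated and 29.8, 31.2 and 32.4% in mock 1 to 3. Cells can enter or leave the gate on thinning, so these shares are of 3390 gated cells in ligated and 2484, 4982 and 6380 in mock 1 to 3, not all the same cells. With 1 library against 3, an exact permutation test cannot give a p below 0.25, so the size of the difference is given without a call. Intervals cover counting error only.

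The share follows from Car4 and Esm1, whose own levels differed. Of gated endothelial cells, 40.1% had a Car4 UMI in ligated and 68.0, 66.6 and 63.4% in mock 1 to 3, and 13.4% had an Esm1 UMI in ligated and 32.7, 30.3 and 29.1% in mock 1 to 3. Of cells that passed the rest of the rule, 48.7% had neither transcript in ligated and 19.5, 20.8 and 24.2% in mock 1 to 3. Fewer cells of this kind and less Car4 and Esm1 RNA per cell cannot be told apart with these data. Just outside the threshold, cells with 1 UMI of the pair were 19.2% in ligated and 15.7, 16.1 and 16.2% in mock 1 to 3. Just inside it, cells with 2 UMIs were 11.5% in ligated and 11.6, 13.4 and 12.9% in mock 1 to 3. With at least 4 UMIs required, the share was 5.27% in ligated and 24.6, 21.8 and 20.3% in mock 1 to 3.

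**Figure D1:**
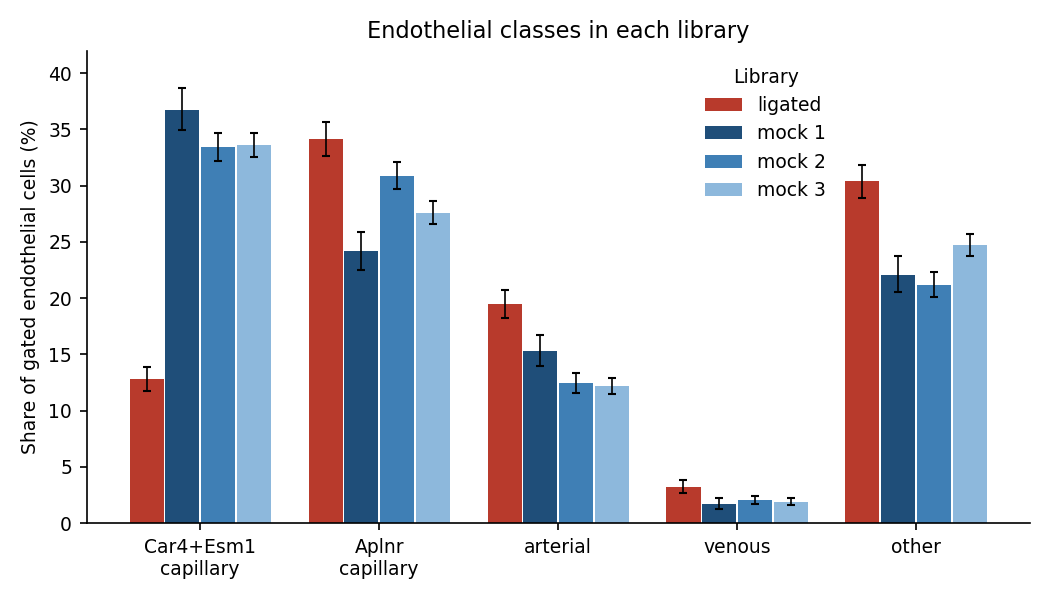
Shares of gated endothelial cells (%) in 5 classes, with 1 bar per library and exact binomial 95% intervals; the ligated library is the leftmost bar of each class. The Car4+Esm1 capillary class stands at 12.8% in ligated, below all 3 mock libraries (33.5 to 36.8%).

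Within the selected cells, UMIs were summed per library and compared by edgeR's quasi-likelihood test over 12313 genes. The water channel gene Aqp1, the growth factor carriers Igfbp3 and Igfbp4 and the endothelin receptor gene Ednrb stood higher in the ligated library, and the lipid carrier Fabp4, the ligand gene Bmp6 and Rgcc stood lower. No gene passed an adjusted p of 0.05 (0%), 911 had an unadjusted p under 0.05 (519 higher and 392 lower in ligated), and DESeq2 called 60. The smallest adjusted p was 0.275. The median log2 fold change over all genes was -0.04. As a rule of size chosen after seeing that count, a gene was set aside when its ligated CPM lay past 2-fold (5 CPM added) above every mock library or below every mock library. Of the genes tested 98 lay above in this way (0.796%) and 30 below (0.244%). Without mock 1 these counts were 174 and 450. That set holds only version 7.0.0 mock libraries, so surgery and Cell Ranger version cannot be told apart in it. With a term for the version, fold changes rest on ligated against mock 1 alone, and their spread on mock 2 against mock 3. In cells with both Car4 and Esm1, 81 genes lay past 2-fold below, and in Esm1-only cells 140.

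Markers of other cell types differed between the libraries in these cells, and not all of them set the ligated library apart. Pdgfra and Ptprc, listed with fibroblasts and with T or NK cells, were left out because the rule set them to 0. Summed over the other 6 fibroblast markers, the selected cells carried 167 raw CPM in ligated and 18.5, 24.3 and 13.8 in mock 1 to 3. All 5 tested fibroblast markers lay past 2-fold above. The other 9 markers of T or NK cells summed to 316 raw CPM in ligated and 21.3, 9.04 and 13.5 in mock 1 to 3, with 7 of 9 tested past 2-fold above. The 8 macrophage or monocyte markers summed to 226 raw CPM in ligated and 35.5, 17.6 and 41.2 in mock 1 to 3, with 4 of 7 tested past 2-fold above. Erythroid markers summed to 3045 raw CPM in ligated and 14963, 5635 and 10973 in mock 1 to 3, with 2 of 5 past 2-fold below. Of all genes tested, 0.796% lay past 2-fold above and 0.244% below. Acinar or duct markers summed to 259 raw CPM in ligated and 106, 812 and 954 in mock 1 to 3. Bhlha15, Smgc, Aqp5, Epcam and Klk1b22 had 0 UMIs in ligated, the library with the fewest UMIs in these cells. Klk1b22, Aqp5 and Krt8 had 0 UMIs in mock 1, and Bhlha15 had 0 in mock 3. Klk1b22, Pip and Prol1 are among the 299 genes lower in both version 6.0.1 libraries. Mural markers summed to 124 raw CPM in ligated and 51.3, 124 and 225 in mock 1 to 3, and glial markers to 26.3 in ligated and 3.43, 5.82 and 12.8 in mock 1 to 3. B cell markers summed to 7.10 raw CPM in ligated and 5.32, 1.11 and 0.965 in mock 1 to 3. Of these 5 markers, 4 had 0 UMIs in ligated and 0, 1 and 3 had 0 UMIs in mock 1 to 3. The part of such RNA in any gene below was not tested beyond the values given.

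**Figure D2:**
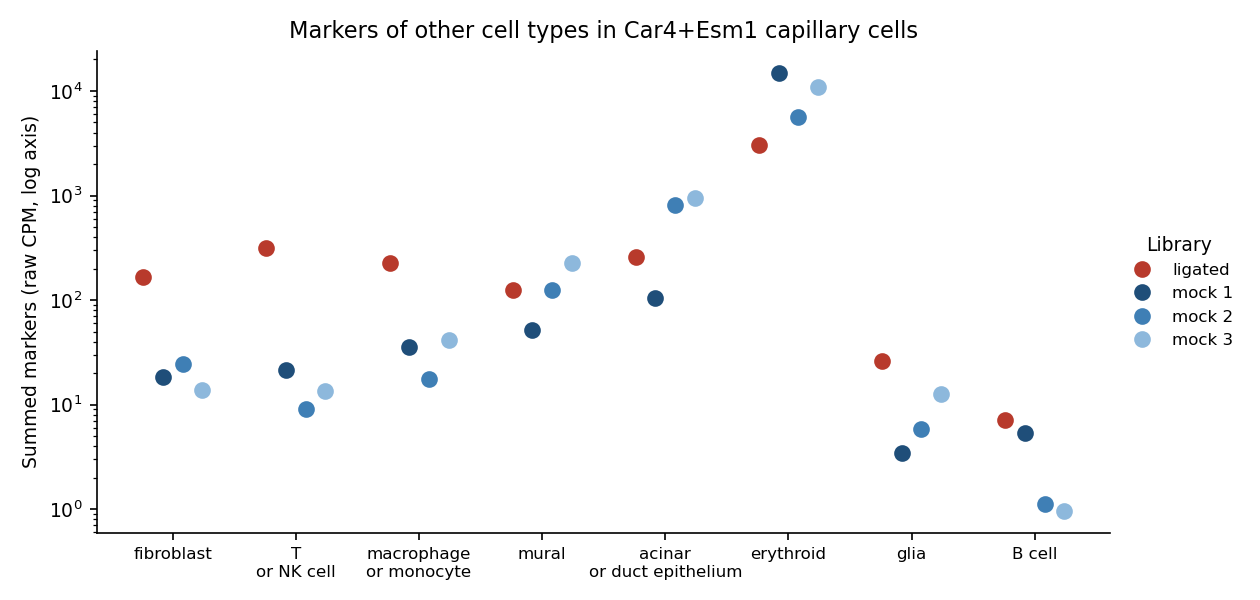
Summed markers of 8 other cell types in the selected cells (raw CPM, log axis), 1 point per library with ligated leftmost. Fibroblast, T or NK cell and macrophage markers are higher in ligated than in any mock library, and erythroid markers are lower.

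Of the 98 genes past 2-fold above, 63 were at least 5 times as high raw CPM in cells outside the endothelial gate of the ligated library, and 21 were lower there. Among the 12 genes with the largest positive fold changes 11 were at least 5 times as high outside the gate, with Apod, Mgp, Gzmc, Ccl5, Cxcl14 and Col3a1 among them. Of the 30 genes past 2-fold below, 24 were lower outside the gate in the mean of the mock libraries. The matching shares over all genes tested were not taken, so these counts have no background beside them. Mgp, an inhibitor of calcification, stood at 201 CPM in ligated and 7.86, 10.8 and 10.9 CPM in mock 1 to 3. After thinning, 35.3% of selected ligated cells had an Mgp UMI, as did 33.7% of ligated Ptprc cells with no endothelial gate UMI. Median depths of these cell sets were 4145.5 and 4764 UMIs. The source of this Mgp RNA was not tested. The genes described next as higher, unless it is said otherwise, had lower levels outside the gate, a restriction added after seeing the data.

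Aqp1, the water channel of many capillary beds (chromosome 6, 55336432 to 55348555, plus strand, GRCm38), had the largest excess of these. It stood at 657 CPM in ligated and 55.9, 44.6 and 34.8 CPM in mock 1 to 3, with no overlap, a log2 fold change of 3.87 ± 0.28 (SE; edgeR adjusted p = 0.276). After thinning, 56.1% of selected ligated cells had an Aqp1 UMI, against 6.03, 5.45 and 4.66% in mock 1 to 3, and 1.90% of ligated Ptprc cells did. Aqp7, a channel for water and glycerol, went the other way, at 3.26 CPM in ligated and 27.2, 20.6 and 20.8 CPM in mock 1 to 3 (log2 fold change -2.80 ± 0.38, edgeR adjusted p = 0.528). The water channels thus lay on opposite sides of the mock range. Of the other vasoactive genes, Ednrb, the endothelin B receptor, stood at 623 CPM in ligated and 324, 272 and 258 CPM in mock 1 to 3. Calcrl, the receptor subunit for CGRP and adrenomedullin, stood at 193 CPM in ligated and 321, 360 and 351 CPM in mock 1 to 3. Of 19 tested genes for shear stress and vasoactive function, 6 lay above and 6 below the mock range, where 28.4% of all genes lay above and 29.1% below.

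Among genes that bind growth factors or hormones, Igfbp3, Igfbp4, Insr and Npr3 lay above the mock range in ligated, and none passed the adjusted threshold. Igfbp3 stood at 2796 CPM in ligated and 1103, 1181 and 1166 CPM in mock 1 to 3, a log2 fold change of 1.28 ± 0.17 (edgeR adjusted p = 0.521), with the mock libraries close together. Igfbp4, another carrier of insulin-like growth factors, stood at 192 CPM in ligated and 17.1, 25.6 and 30.1 CPM in mock 1 to 3 (log2 fold change 2.98 ± 0.32, edgeR adjusted p = 0.358). Its level outside the gate was higher than in the selected cells, at 344 raw CPM in ligated, and 24.5% of thinned selected ligated cells and 6.52% of Ptprc cells had a UMI. Its log2 fold change was 3.61 in Car4-only cells and 0.49 in Esm1-only cells, beside a Car4-only share of 64.7% in ligated and 48.9 to 50.5% in the mock libraries. Insr, the insulin receptor, stood at 230 CPM in ligated and 48.6, 72.2 and 74.6 CPM in mock 1 to 3. Npr3, the clearance receptor of natriuretic peptides, stood at 20.4 CPM in ligated and 3.22, 4.02 and 5.29 CPM in mock 1 to 3. In each of these genes the ligated library lay above every mock library, as it did in 28.4% of all genes. Kitl, which encodes stem cell factor, was lower, at 421 CPM in ligated and 731, 803 and 771 CPM in mock 1 to 3. Of 19 tested angiocrine and growth factor genes, 8 lay above and 7 below the mock range, against 28.4% and 29.1% of all genes, and Igfbp3 and Igfbp4 were the 2 past 2-fold above. The list's median log2 fold change was 0.21, and over the alternatives it ran from -0.70 in Esm1-only cells to 0.51 with the Cell Ranger version term; it was -0.30 without mock 2 and -0.14 without mock 3.

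**Figure D3:**
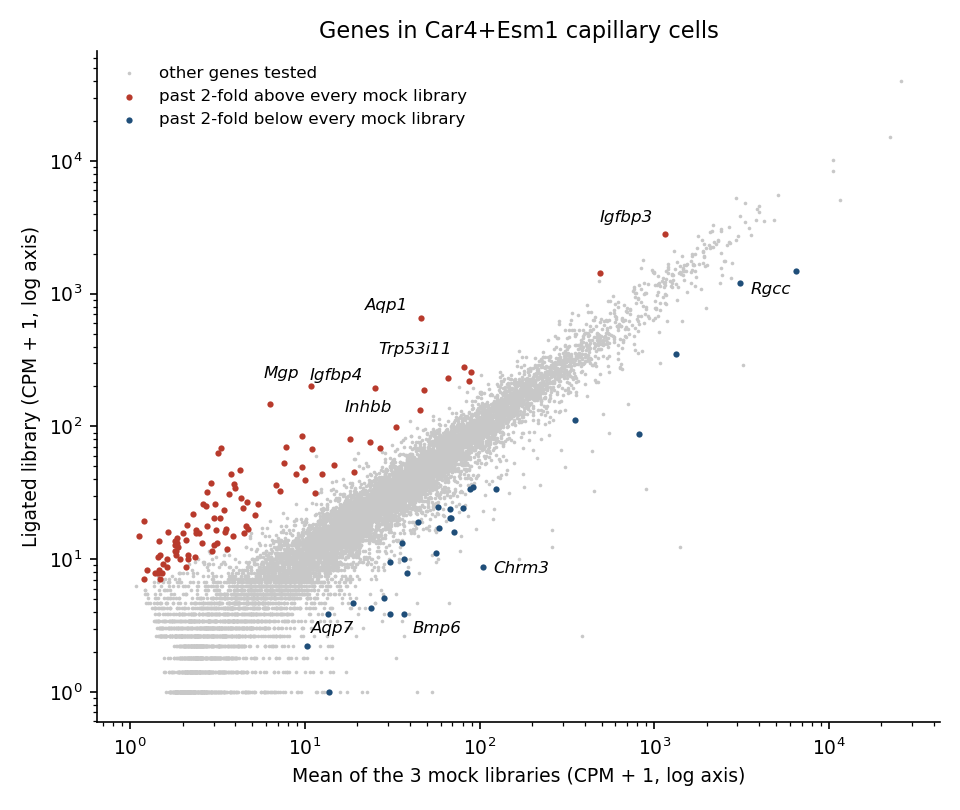
Ligated level against the mean of the mock libraries for the genes tested in the selected cells (CPM + 1, log axes; genes of the selection rule left out). Genes past 2-fold above every mock library are red and those past 2-fold below are blue, with Aqp1 at 657 CPM in ligated and Bmp6 at 2.85 CPM in ligated among them.

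Fatty acid genes, by which capillaries take up and carry lipid, were found on either side of the mock range. Fabp4, a fatty acid binding protein, stood at 5123 CPM in ligated and 14102, 9946 and 10655 CPM in mock 1 to 3 (log2 fold change -1.18 ± 0.29, edgeR adjusted p = 0.617). Fabp5, of the same family, stood at 294 CPM in ligated and 804, 562 and 579 CPM in mock 1 to 3, and Cd36, a fatty acid translocase, at 247 CPM in ligated and 507, 474 and 478 CPM in mock 1 to 3. Pparg, a nuclear receptor that drives fatty acid genes, stood at 17.1 CPM in ligated and 32.3, 49.5 and 43.8 CPM in mock 1 to 3. In each of these the ligated library lay below every mock library. Gpihbp1, which carries lipoprotein lipase to the capillary lumen, lay above, at 1467 CPM in ligated and 1099, 894 and 981 CPM in mock 1 to 3. Lpl itself stood at 16.7 CPM in ligated and 4.65, 1.34 and 4.75 CPM in mock 1 to 3, with 536 raw CPM outside the gate in ligated. Of 22 listed genes 19 were tested, 5 above and 7 below the mock range, counts near the 28.4% and 29.1% of all genes. Their median log2 fold change was -0.01 against -0.04 over all genes, and it ran from -0.34 in Esm1-only cells to 0.09 without mock 1 over the alternatives.

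BMP signalling is known for its role in keeping endothelium quiescent, and several of its genes lay below the mock range. The ligand gene Bmp6 (chromosome 13, 38345107 to 38500302, plus strand, GRCm38) stood at 2.85 CPM in ligated and 21.8, 44.9 and 40.7 CPM in mock 1 to 3 (log2 fold change -3.65 ± 0.69, edgeR adjusted p = 0.617). After thinning, 0.221% of selected ligated cells had a Bmp6 UMI, against 4.02, 7.28 and 5.93% in mock 1 to 3. The receptor gene Acvrl1 stood at 248 CPM in ligated and 439, 373 and 393 CPM in mock 1 to 3. Of the intracellular genes, the inhibitor Smad6 stood at 20.0 CPM in ligated and 40.0, 63.7 and 59.4 CPM in mock 1 to 3, and the effector Smad9 at 2.04 CPM in ligated and 6.97, 6.33 and 5.72 CPM in mock 1 to 3. Smad1, another effector, lay above the mock range, at 80.7 CPM in ligated and 59.9, 52.6 and 53.7 CPM in mock 1 to 3. Of 15 tested genes 3 lay above and 9 below, against 28.4% and 29.1% of all genes. The median of their log2 fold changes was -0.36, but -0.09 without mock 1, near the -0.04 over all genes, and -0.65 with the Cell Ranger version term. Target genes were less clear: Id1 stood at 653 CPM in ligated and 1395, 686 and 710 CPM in mock 1 to 3, so that mock 1 was the library apart. Bmp6 and Smad6 were also lower in mock 1 than in mock 2 and 3, and Bmp6 had a log2 fold change of -2.92 with the version term, and in these genes surgery and the Cell Ranger version cannot be told apart in full.

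In the neighbouring TGF-beta and activin group, Inhbb, the beta B subunit of activin and inhibin, stood at 98.6 CPM in ligated and 38.2, 29.8 and 28.3 CPM in mock 1 to 3 (log2 fold change 1.62 ± 0.23, edgeR adjusted p = 0.575). Ltbp1, which holds latent TGF-beta in the matrix, stood at 23.6 CPM in ligated and 54.7, 60.6 and 54.8 CPM in mock 1 to 3, and the ligand gene Tgfb2 at 31.8 CPM in ligated and 76.3, 61.6 and 60.3 CPM in mock 1 to 3. Of 20 tested genes 5 lay above and 9 below the mock range, against 28.4% and 29.1% of all genes.

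**Figure D4:**
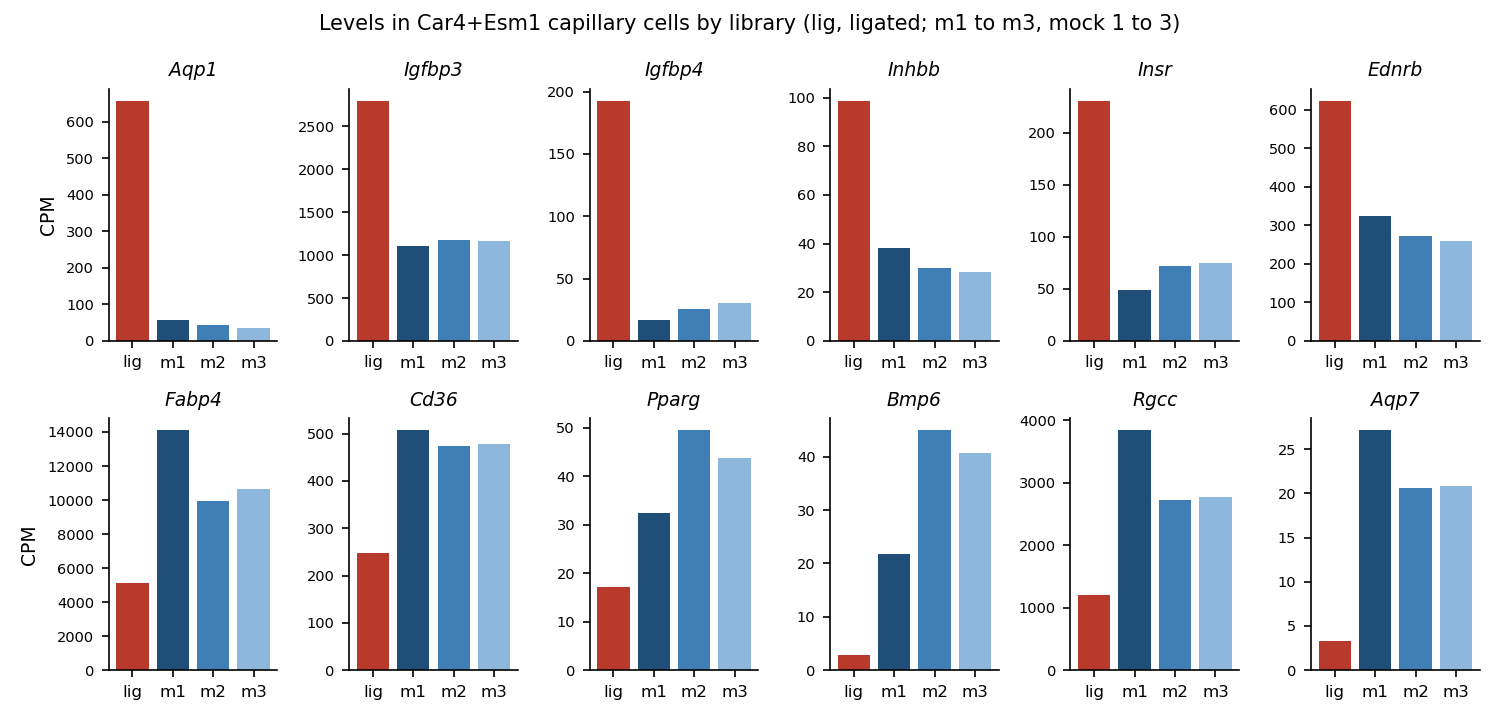
Levels of 12 genes in the selected cells (CPM, each axis from 0), 1 bar per library with ligated leftmost. Aqp1, Igfbp3, Igfbp4, Inhbb, Insr and Ednrb are higher in ligated than in any mock library; Fabp4, Cd36, Pparg, Bmp6, Rgcc and Aqp7 are lower.

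Among genes of tip cells and VEGF signalling, Rgcc stood at 1196 CPM in ligated and 3839, 2720 and 2776 CPM in mock 1 to 3. Trp53i11, listed with tip cell genes, stood at 282 CPM in ligated and 62.5, 91.1 and 89.2 CPM in mock 1 to 3, and Kcne3, a potassium channel subunit, at 11 CPM in ligated and 2.32, 2.56 and 2.81 CPM in mock 1 to 3. Kdr, the main VEGF receptor, stood at 1772 CPM in ligated and 3646, 2037 and 1923 CPM in mock 1 to 3, which left mock 1 apart rather than the ligated library. Of 23 tested genes 8 lay above and 8 below, against 28.4% and 29.1% of all genes. Notch genes lay above in 9 and below in 2 of 16, where 28.4% and 29.1% of all genes did, and none was past 2-fold. Their log2 fold changes had a median of 0.39, which was 0.13 with the Cell Ranger version term, 0.26 without mock 2 and 0.07 in Esm1-only cells. Of the endothelial transcription factors, Bcl6b stood at 44.0 CPM in ligated and 17.1, 17.8 and 19.3 CPM in mock 1 to 3, and Ets2 at 335 CPM in ligated and 158, 177 and 186 CPM in mock 1 to 3. In that list 6 of 25 lay above and 9 below, near the shares over all genes.

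A muscarinic and a glutamate receptor gene were among the 12 with the most negative fold changes. Chrm3, the muscarinic M3 acetylcholine receptor, stood at 7.74 CPM in ligated and 39.1, 141 and 129 CPM in mock 1 to 3, with mock 1 between ligated and the version 7.0.0 libraries. It is one of the 299 genes past 2-fold lower in both version 6.0.1 libraries. Its log2 fold change was -3.73 and, with the Cell Ranger version term, -2.33. Grin2a, an NMDA receptor subunit, stood at 6.93 CPM in ligated and 39.1, 36.8 and 36.1 CPM in mock 1 to 3 (log2 fold change -2.43 ± 0.24, edgeR adjusted p = 0.343). Here the mock libraries were close together. Slc16a1 stood at 33.8 CPM in ligated and 107, 76.4 and 87.5 CPM in mock 1 to 3, and Penk at 16.3 CPM in ligated and 83.8, 44.1 and 44.6 CPM in mock 1 to 3. Penk did not keep that direction in Car4-only cells, where its log2 fold change was 0.36. Col4a3, a basement membrane collagen chain, stood at 8.56 CPM in ligated and 33.4, 30.6 and 25.2 CPM in mock 1 to 3. Cyp1a1, a target of the aryl hydrocarbon receptor, had 0 UMIs in ligated and 12, 10.8 and 15.3 CPM in mock 1 to 3. Taking 3 counts in the ligated library as the floor, or 1.25 raw CPM, it was at least 8.81-fold lower in ligated than in the lowest mock library. The globin genes Hbb-bs and Hbb-bt, near-identical copies, and AY036118, which overlaps ribosomal RNA, were also past 2-fold below, and their counts are uncertain.

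The remaining lists are given by their counts, against 28.4% of all genes above and 29.1% below. Of 29 tested interferon-stimulated genes 11 were above and 3 were below the mock libraries, and the 1 past 2-fold above was Cxcl10, at 26.1 CPM in ligated and 0.71, 5.12 and 5.07 CPM in mock 1 to 3. Its level outside the gate was 58.4 raw CPM in ligated. MHC class I genes lay above in 3 and below in 1 of 17, and MHC class II genes above in 5 and below in 0 of 7, beside summed levels of 311 raw CPM in ligated and 93.9, 120 and 183 in mock 1 to 3 in the selected cells and 3624 raw CPM outside the gate in ligated. Of 19 immediate early and stress genes 9 lay above and 4 below, Fosb past 2-fold at 258 CPM in ligated and 110, 77.7 and 76.6 CPM in mock 1 to 3. Of 19 tested glycolysis and hypoxia genes 3 lay above and 3 below, and of 18 basement membrane genes 3 lay above and 4 below. Pan-endothelial genes outside the rule lay above in 3 and below in 6 of 14, leukocyte adhesion genes above in 4 and below in 4 of 9, and cell cycle genes above in 5 and below in 4 of 12. Glucocorticoid-responsive genes lay above in 2 and below in 4 of 12, angiopoietin, Tie and apelin genes above in 0 and below in 3 of 6, and aryl hydrocarbon receptor targets above in 0 and below in 2 of 4.

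The last question was where the surgery difference in the selected cells departed from that in Aplnr capillary cells of the same libraries, tested as a class by surgery term in edgeR with a term for each library. Of 13040 genes 19 had a term above 0 (0.146%) and 19 below 0 (0.146%) at an adjusted p under 0.05, with Car4, a gene of the rule, among those above 0. Aqp1 differed more in the selected cells, by 0.91 ± 0.16 on the log2 scale (edgeR adjusted p = 0.00354). Its log2 fold change was 3.87 in the selected cells and 2.83 in Aplnr capillary cells. The rule asked for at least 2 UMIs of Car4 and Esm1 together in the selected cells, with no such floor in Aplnr capillary cells. The part of that floor in these terms was not tested. Fabp4 and Cd36, both lower in ligated, had smaller differences in the selected cells. Fabp4 had log2 fold changes of -1.18 in the selected cells and -1.67 in Aplnr capillary cells (term 0.50 ± 0.04, edgeR adjusted p = 1.12e-09). Cd36 had -0.98 in the selected cells and -1.66 in Aplnr capillary cells (term 0.66, edgeR adjusted p = 0.00294). Fabp5 and Rbp7 had terms of 0.45 and 0.36, and both lost the call with upper quartile scaling. Of 22 fatty acid genes in this test, these calls on Fabp4, Cd36 and Fabp5 were the 3 made. Vim, an intermediate filament, and Fbln2, a matrix protein, had terms of 0.64 and 0.47, and Cxcl12 one of 0.37. Vim stood at 802 raw CPM outside the gate in ligated, above its level in the selected cells.

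Igfbp3, Igfbp4, Inhbb and Dll4 differed less in the selected cells than in Aplnr capillary cells. Dll4, a Notch ligand of tip and arterial cells, had log2 fold changes of 0.53 in the selected cells and 1.34 in Aplnr capillary cells (term -0.81 ± 0.14, edgeR adjusted p = 0.00501). Inhbb had a term of -0.76 (edgeR adjusted p = 0.0114), Igfbp4 one of -0.65 (edgeR adjusted p = 0.0295) and Igfbp3 one of -0.39 (edgeR adjusted p = 0.0082). With the Cell Ranger version as a further term by class, Inhbb and Igfbp4 lost the call. Igfbp4 also lost it without mock 3. Scn7a, Klk1, Wfdc18 and Fxyd2, also with terms below 0, are known from glia or gland epithelium, and their levels outside the gate in ligated included 126 raw CPM for Scn7a and 663 for Klk1. Of the 37 genes other than Car4, 29 to 37 kept the call under each alternative and all kept the direction. These genes were picked by the reported fit and each alternative used the same ligated library, so this is not independent evidence. The total called was 198 without mock 1 and 60 without mock 2. Aplnr capillary cells also carried Car4, at a mean of 1.20 UMIs per cell in ligated and 3.04, 2.75 and 2.36 in mock 1 to 3, so the classes are not separate in that gene.

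**Figure D5:**
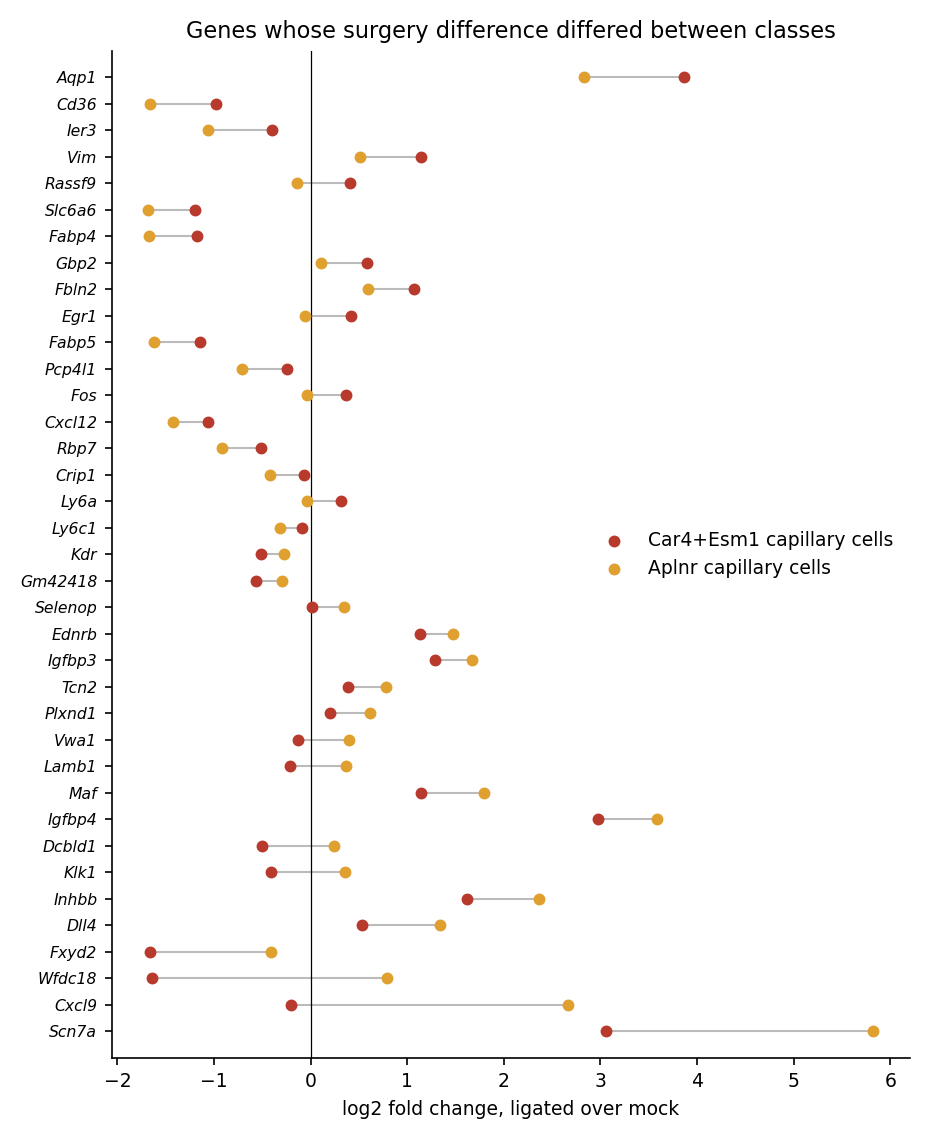
Log2 fold changes, ligated over mock, of the 37 genes with a class by surgery term at adjusted p under 0.05 (Car4 left out), in Car4+Esm1 capillary cells (red) and Aplnr capillary cells (yellow), ordered by the term. Aqp1 lies further from 0 in the Car4+Esm1 cells (3.87 and 2.83), and Fabp4 and Cd36 lie nearer to 0 there.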

How the data were processed

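The deposited values are raw counts (UMIs per gene and barcode), 1 sparse matrix per library. The submitters' processing notes name mm10 and Cell Ranger 7.0.1, the file headers 6.0.1 and 7.0.0, and no source used here says if introns were counted. The 30406 gene IDs shared by all libraries were used. Cells had at least 500 UMIs, 300 genes and at most 15% mitochondrial UMIs. No doublet caller was run.

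The selected cells, gene lists and comparisons were chosen with earlier results of these data known. Counts were summed per class and library and fitted with edgeR 4.0.16 (R 4.3.3; quasi-likelihood, TMM, filterByExpr, Benjamini-Hochberg at 0.05), with 2 residual degrees of freedom; its single ligated library has to be taken to vary as the mock ones do. The fits were tested on simulated data with a single dispersion for all genes and the classes drawn independently. Of 200 changed genes, the ligated against mock fit called 111, with 5 false calls. The class by surgery fit called 8 of 200, with 0 false calls. CPM are TMM-scaled, and raw CPM are not. Each SE is the fold change divided by the root of its F statistic. DESeq2 1.42.0 was an alternative. Named genes are list members, or the 12 with the largest fold changes in each direction at an unadjusted p under 0.05, at least 20 CPM and outside the mock range. Genes set against other classes were the 15 steadiest over the libraries, those set between Car4-only and Esm1-only cells the 8 steadiest, and those of the class by surgery term the 6 smallest p in each direction, with list members. Coordinates are from GENCODE for GRCm38.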

Additional observations from a re-analysis of the deposited data

Results flagged for a closer look

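These genes are given because their surgery difference in Car4+Esm1 capillary cells departed from that in Aplnr capillary cells by edgeR's class by surgery term. The terms above 0 on the log2 scale were 0.50 for Fabp4, 0.64 for Vim, 0.36 for Ly6a, 0.47 for Fbln2, 0.37 for Cxcl12 and 0.52 for Slc6a6. The terms below 0 were -0.27 for Gm42418, which overlaps ribosomal RNA, -0.75 for Klk1, -1.25 for Fxyd2, -2.89 for Scn7a, -0.81 for Dll4 and -0.56 for Lamb1. Klk1 and Scn7a lost the call once Cell Ranger version by class was a term. The share of RNA from other cells in Klk1, Fxyd2 and Scn7a was not tested. Nor was the part of the Car4 and Esm1 floor, which only the selected cells had to meet.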

How the results depend on the processing

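No paired analysis was possible because the ligated and mock groups share fewer than 2 replicate numbers. The count of genes called between ligated and mock, 0 in the reported fit, was 3 with no low count filter, 2186 with a Cell Ranger version term, 6 with counts thinned to the smallest library, 7 in Esm1-only cells and 60 with DESeq2; leaving out 1 mock library gave 0 to 4372. It was 0 under the other 7 alternatives, of which 2, members with both genes and mock 2 and 3 summed, were chosen after seeing the data. Leaving out 1 mock library gave 103 to 174 genes past 2-fold above (98 with all) and 35 to 450 below (30 with all); those below were 140 in Esm1-only cells and 81 in cells with both genes. Over 42 genes named, the direction held under each alternative that could be fitted except for Penk in Car4-only cells (0.36). All 42 lay outside the mock range in the reported fit, and every alternative used the same ligated library. The direction could therefore hardly turn when a mock library was left out, and its holding is not independent evidence. In Esm1-only cells, of which ligated held 50, log2 fold changes included 0.49 for Igfbp4, 0.81 for Insr and 0.20 for Lpl. The class by surgery term called 108 genes with no low count filter, 187 with the version by class, and 56 to 198 without 1 mock library, against 38. The share difference of -21.8 points was -16.9 points with Car4+Esm1 at least 4. The cause of these differences was not tested. The version term sets ligated against mock 1 alone. Without mock 1, surgery and Cell Ranger version cannot be told apart. The 490 ligated cells limit genes of low level.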
